A study of Mus musculus with 6 samples.

Results

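Cytoplasmic ribosomal protein genes encode the protein part of the ribosomes that translate messenger RNA outside the mitochondria. They were taken by name, as every gene symbol made of Rpl or Rps and a number with at most one further letter and digit, the stalk protein genes Rplp0, Rplp1 and Rplp2, and Rpsa, without pseudogene names and without the Rps6k kinase genes. The rule gave 89 of the 56805 genes listed, 53 of the large and 36 of the small ribosomal subunit, on 19 chromosomes with 4 on X. It leaves out Fau, whose ribosomal protein is made as a fusion with a ubiquitin-like protein, and Rpl36al, Rpl37rt and Rps27rt.

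The data are counts from total RNA, depleted of ribosomal RNA, of motor neurons of 2 levels of the mouse spinal cord, cervical and thoracic, at e12.5, a stage of axon growth in mid-gestation, with 3 libraries per region. All embryos carried the control genotype and had no treatment. Motor neurons of the cervical cord drive the diaphragm and forelimb among other muscles, and those of the thoracic cord serve the body wall and the autonomic ganglia. The series calls its samples biological replicates without saying whether one is an embryo, a litter or a pool, so the p-values rest on the spread of these 6 libraries. The sources used here do not say how the motor neurons were isolated.

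Each ribosome holds a single copy of almost every one of these proteins, so cells usually make them in step with each other and with ribosomal RNA. In mammals their messenger RNAs begin with a run of pyrimidines, the 5′ terminal oligopyrimidine tract, through which mTOR signalling controls their translation. Mammalian genomes also carry many processed pseudogenes of them, copies made from spliced messenger RNA, and growing neurons send some of these transcripts into axons.

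Library totals were 32103071 to 33790634 counts, apart from thoracic library 1 with 53186131. The mean summed level of 8 motor neuron markers was 457 ± 166 CPM (counts scaled by TMM-adjusted library size) in the cervical and 489 ± 106 CPM in the thoracic libraries (SD, n = 3 each), and none of the 8 was at 0. The markers of spinal interneurons summed to 1884 ± 85.1 and 1586 ± 2.62 CPM and those of neural progenitors to 786 ± 126 and 903 ± 132 CPM, so the samples hold RNA of other neural cells. Fewer cells of a type and less RNA per cell cannot be told apart in such counts.

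Ribosomal protein genes took a small part of the counts in every library. Their share was 0.482, 0.749 and 0.638% in cervical libraries 1, 2 and 3, against 0.627, 0.562 and 0.507% in thoracic libraries 1, 2 and 3. The highest and the lowest share of all were both cervical, in libraries 2 and 1, and the thoracic shares lay between them. The means were 0.623 ± 0.134% in cervical and 0.565 ± 0.0602% in thoracic libraries (SD, n = 3 each), 0.0575 percentage points apart, which is less than either SD. Without cervical library 2 the difference was -0.0053 percentage points, and without cervical library 1 it was 0.128. It was 0.0885 without thoracic library 1 and 0.0284 without thoracic library 3.

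Both subunits shared this pattern. Large-subunit genes took 0.365 ± 0.0797% of counts in cervical and 0.332 ± 0.0361% in thoracic libraries, and small-subunit genes 0.258 ± 0.0540 and 0.233 ± 0.0241%. The highest over the lowest share of the 6 libraries was 1.56 for the large and 1.53 for the small subunit, while the ratio of large-subunit to small-subunit reads stayed between 1.40 and 1.43. Genes named as ribosomal protein pseudogenes, 322 in number, together took 0.0049 to 0.0055% in cervical and 0.0051 to 0.0056% in thoracic libraries.

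Of the 89 genes, 81 passed the low-count filter, 48 of the large and 33 of the small subunit. Per exon length, in RPKM (CPM divided by the exon length in kilobases), they ranged from 1.09 to 221 with a median of 30.3 (mean of 6 libraries), and the subunits had medians of 30.5 (large) and 30.3 (small). The exon length is the deposited sum over all annotated exons, so genes with long alternative exons sit lower on this scale than their messenger RNA alone would.

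At the top stood Rplp1, which encodes an acidic protein of the stalk that recruits elongation factors. Its level was 193, 254 and 227 RPKM in the cervical libraries, against 232, 228 and 191 RPKM in the thoracic libraries. Next by mean over the 6 libraries came Rpl8, Rps15 and Rpl4. Rpl8 and Rpl4, whose proteins lie in the core of the large subunit, stood at 179.8 ± 10.9 and 172 ± 7.60 RPKM in cervical libraries, and 178 ± 10.9 and 168 ± 11.4 RPKM in thoracic ones. Rps15, the highest of the small subunit, whose protein sits in its head, stood at 181 ± 25.2 RPKM in cervical and 166 ± 15.9 RPKM in thoracic libraries. These 3 genes did not differ from each other beyond their spread. Rplp0, the stalk base protein gene, came next with 129 ± 19.3 and 119.5 ± 7.14 RPKM.

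At the bottom, Rpl23a and Rpl24 stood at a mean of 1.09 and 1.10 RPKM, followed by Rps10 at 3.42 RPKM. Rpl23a encodes a protein at the exit of the peptide tunnel, and Rpl24 one at the interface of the subunits. In the deposited coordinates Rpl24 (chr16:55786638-55791798, mm39) shares 484 of its 1030 exonic bases with Gm28037 on the same strand, and Rps10 (chr17:27849392-27855643) shares 475 of 2311 with Gm49804. Rpl23a (chr11:78071758-78074410) shares 506 bases with Tlcd1 on the opposite strand. Gm28037 and Gm49804 had no counts. The sources used here give neither the strand setting of the counting nor its treatment of reads that fall in more than one gene, so these low values are uncertain. All 50-base stretches of the coding sequences of Rpl23a and Rpl24, and 67.3% of those of Rps10, also occur in annotated pseudogenes. For Rplp1, Rpl8, Rps15, Rpl4 and Rplp0 the figures were 47.4, 8.73, 43.3, 20.3 and 60.3%. The treatment of reads with several matches is not given either, and the part of such copies in this ranking was not tested. Over all 89 genes, 27 overlap another gene's exons on the same strand and 20 on the opposite strand.

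**Figure D1:**
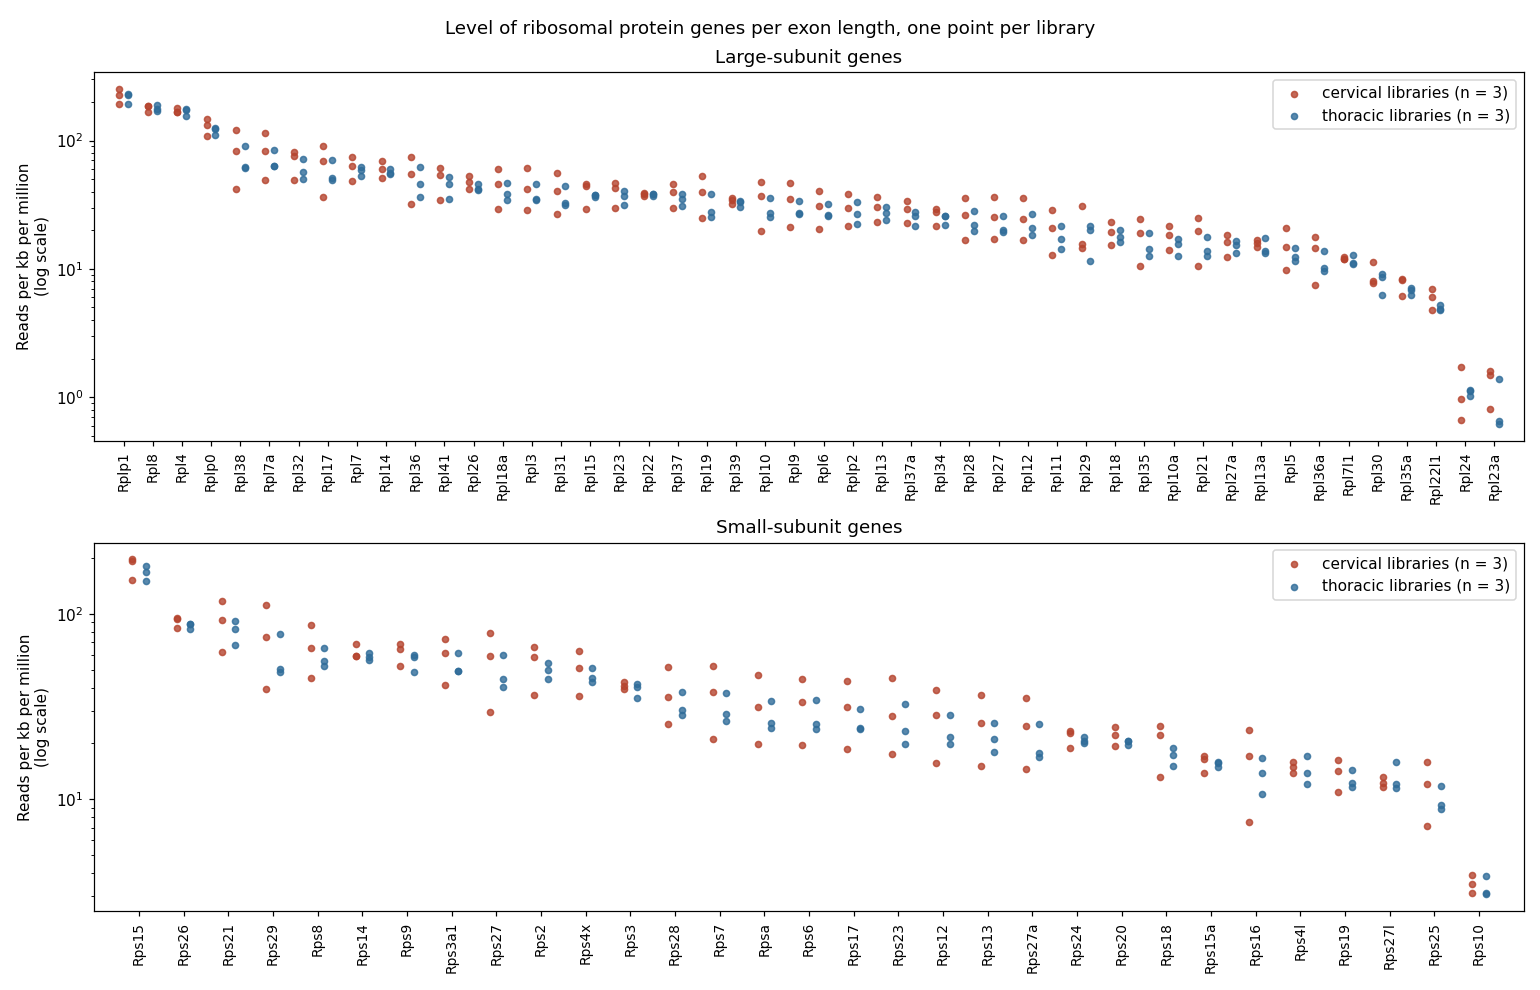
Level of 79 of the 81 tested genes in RPKM (CPM per kilobase of exon), on a log axis, with the large subunit above and the small subunit below. Each point is a library, with the 3 cervical libraries left of the 3 thoracic ones for every gene; Rplp1 stands highest at a mean of 221, Rpl23a lowest at 1.09, and no gene has all cervical points on one side of all thoracic points.

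The remaining 8 genes had too few counts to test. Rps12l1 had a count of 0 in all 6 libraries, which allows up to 3 counts per library, or 0.0559 to 0.0938 CPM. All 399 of its exonic bases overlap Gm44510 on the opposite strand, which had a mean of 183.5 counts. Since the strand setting and the treatment of overlaps are not given, that limit may not hold for Rps12l1. Rpl32l, Rpl6l, Rpl10l, Rps3a3, Rps3a2, Rpl39l and Rpl3l had 1 to 34 counts over all libraries. Rpl3l is known from heart and skeletal muscle, and Rpl10l and Rpl39l from the testis.

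No ribosomal protein gene that passed the low-count filter was called different between cervical and thoracic libraries. By the quasi-likelihood test of edgeR, adjusted by Benjamini-Hochberg over all 21972 genes tested, 0 of the 81 passed an adjusted p of 0.05, against 0.542% of all genes, and the smallest adjusted p was 0.754. In a set of this size 0 calls is near that background. At an unadjusted p under 0.05 the count was also 0, where 8.47% of all genes passed. DESeq2 and limma-voom called 0 of the 81 as well, also at an unadjusted p under 0.05, as did edgeR with the replicate number as a block, which called 1.97% of all genes. With no low-count filter, edgeR called 4 of them higher in cervical libraries, Rpl21 (adjusted p = 0.00929), Rps29 (0.00929), Rpl19 (0.0178) and Rps27a (0.0489), among 747 genes called in all. The 3 cervical and 3 thoracic values overlapped for all 81 genes, while 13.7% of all tested genes had no overlap. An interval of the log2 fold change at 95% included 0 for each gene, and its upper end ranged from 0.12 for Rpl22 to 1.43 for Rpl23a.

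The fitted log2 fold changes of cervical over thoracic were small and almost all on one side. They were above 0 for 80 of the 81 genes, against 52.1% of all tested genes, with a median of 0.17 beside 0.0083 for all genes. Large-subunit genes had a median of 0.17 (48 of 48 above 0) and small-subunit genes 0.16 (32 of 33). These genes vary together over the libraries so 80 genes on one side are not 80 separate observations. Without cervical library 2 the median was -0.03, with 30 genes above 0 and 51 below. Without cervical library 1 it was 0.34. Of the 81 genes, 58 then passed an unadjusted edgeR p under 0.05, against 9.9% of all genes tested. None passed the adjusted one (smallest edgeR adjusted p = 0.0804). The median was 0.28 without thoracic library 1 and 0.08 without thoracic library 3.

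**Figure D2:**
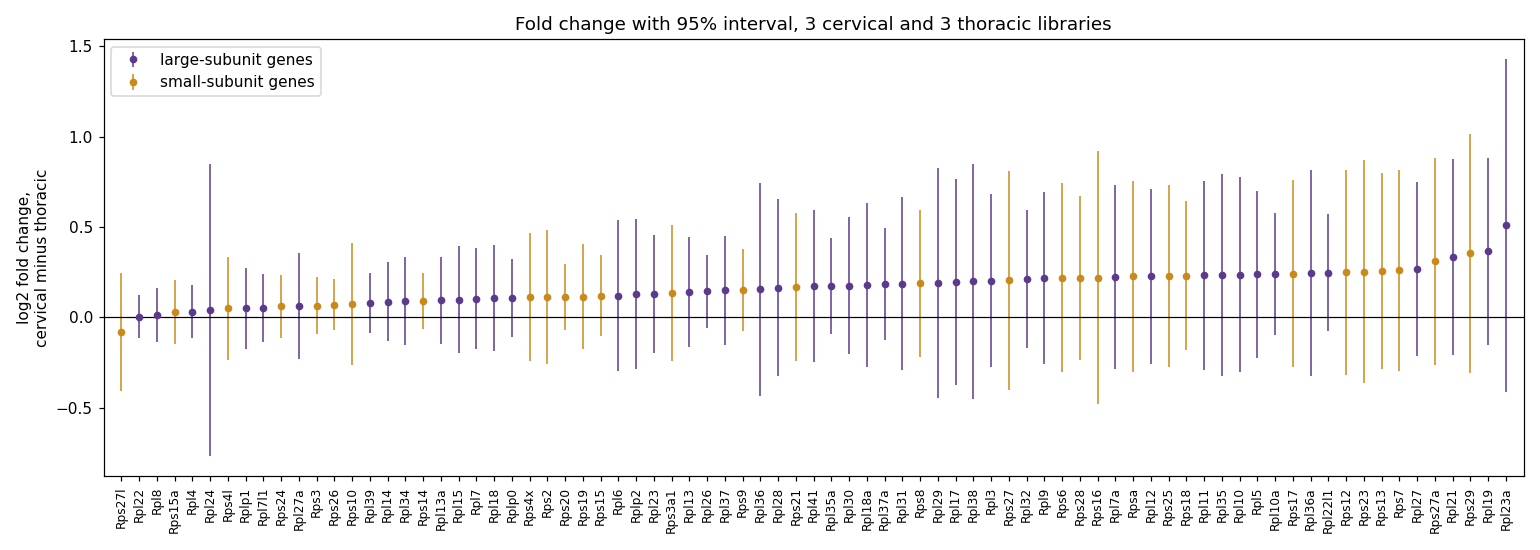
Log2 fold change of cervical over thoracic libraries for 79 of the 81 tested genes, in rising order, with large-subunit and small-subunit genes in different colours; bars are the 95% interval from edgeR's quasi-likelihood fit (n = 3 libraries per region). All intervals cross 0, from Rps27l at -0.08 to Rpl23a at 0.51.

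The smallest unadjusted p, 0.121, belonged to Rpl22l1, the paralog of Rpl22. It stood at 9.58, 13.7 and 11.95 CPM in cervical libraries 1, 2 and 3, against 10.5, 9.57 and 9.66 CPM in thoracic libraries 1, 2 and 3 (log2 fold change 0.25 with SE 0.15, edgeR adjusted p = 0.754). Cervical libraries 2 and 3 were above all thoracic ones and cervical library 1 was at their level. Rpl26, whose protein binds Trp53 messenger RNA in mammalian cells, had 60.0, 76.5 and 69.2 CPM in the cervical libraries, against 61.0, 66.1 and 59.0 CPM in the thoracic libraries (log2 fold change 0.14 with SE 0.09, edgeR adjusted p = 0.777). Rpl19, a large-subunit gene at times used as a reference transcript, had 25.3, 54.2 and 40.9 CPM in the cervical libraries, against 39.1, 28.3 and 25.8 CPM in the thoracic libraries (log2 fold change 0.37 with SE 0.23, edgeR adjusted p = 0.782). In both, cervical library 1 lay among the thoracic values or below them.

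Rpl10a, Rps9, Rpl35a, Rps20, Rpl21 and Rpl37a were also among the 10 genes with the smallest unadjusted p, with log2 fold changes of 0.11 (Rps20) to 0.33 (Rpl21). Rpl35a is one of the ribosomal protein genes mutated in human Diamond-Blackfan anaemia, an inherited failure of red cell formation. Rpl21 had 35.6, 84.9 and 67.4 CPM in the cervical libraries, against 59.8, 46.7 and 42.6 CPM in the thoracic libraries, its cervical values reaching both below and above all thoracic ones. Rpl23a had the largest fitted difference at one of the lowest levels, with 0.682, 1.26 and 1.35 CPM in the cervical libraries, against 1.18, 0.552 and 0.525 CPM in the thoracic libraries (log2 fold change 0.51 with SE 0.42, edgeR adjusted p = 0.842, 95% interval -0.41 to 1.43). Rps27l, whose transcript is induced by p53, was the single gene with a fitted value below 0, at 9.98, 10.8 and 9.48 CPM in the cervical libraries, against 9.82, 12.9 and 9.32 CPM in the thoracic libraries (log2 fold change -0.08 with SE 0.15, edgeR adjusted p = 0.950).

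Genes with known roles of their own overlapped between regions too. Rpl38, whose loss in the mouse impairs translation of Hox transcripts and alters the axial skeleton, had 22.7, 65.5 and 45.2 CPM in the cervical libraries, against 48.8, 33.9 and 33.3 CPM in the thoracic libraries (log2 fold change 0.20 with SE 0.29, edgeR adjusted p = 0.937, 95% interval -0.45 to 0.85). Cervical library 2 was the highest of all and cervical library 1 the lowest. Rps6, the substrate of the S6 kinases, had 31.2, 70.5 and 53.2 CPM in the cervical libraries, against 54.5, 40.3 and 38.1 CPM in the thoracic libraries (log2 fold change 0.22 with SE 0.24, edgeR adjusted p = 0.900), with the same 2 libraries at the extremes. Rpl5 and Rpl11, which hold Mdm2 when ribosome assembly fails and so activate p53, had log2 fold changes of 0.24 and 0.23 (SE 0.21 and 0.24). Rps19, the gene most often mutated in Diamond-Blackfan anaemia, had 51.2, 76.4 and 66.2 CPM in the cervical libraries, against 67.5, 57.0 and 54.3 CPM in the thoracic libraries (log2 fold change 0.12 with SE 0.13, edgeR adjusted p = 0.909). Rpsa, also known as the laminin receptor, had a log2 fold change of 0.23 (SE 0.24) and Rps27a, made as a fusion with ubiquitin, one of 0.31 (SE 0.26).

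The spread of these genes lay between libraries of the same region. As log2 CPM minus each gene's mean over the 6 libraries, the median over the 81 genes was -0.38, 0.41 and 0.13 in cervical libraries 1, 2 and 3, against 0.12, -0.07 and -0.22 in thoracic libraries 1, 2 and 3. The same median over all other tested genes was within 0.0088 of 0 in every library. Cervical library 2 was the highest library for 65 genes, and cervical library 1 the lowest for 57 and thoracic library 3 for 20.

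Libraries that share a number differed in opposite directions. Cervical library 1 was below thoracic library 1 for 70 of 81 genes, with a median log2 difference of -0.51. Cervical library 2 was above thoracic library 2 for 69 genes (median 0.50), and cervical library 3 above thoracic library 3 for all 81 (median 0.36). Over all tested genes, 50.2, 50.5 and 50.8% were higher in the cervical library of the 3 pairs.

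**Figure D3:**
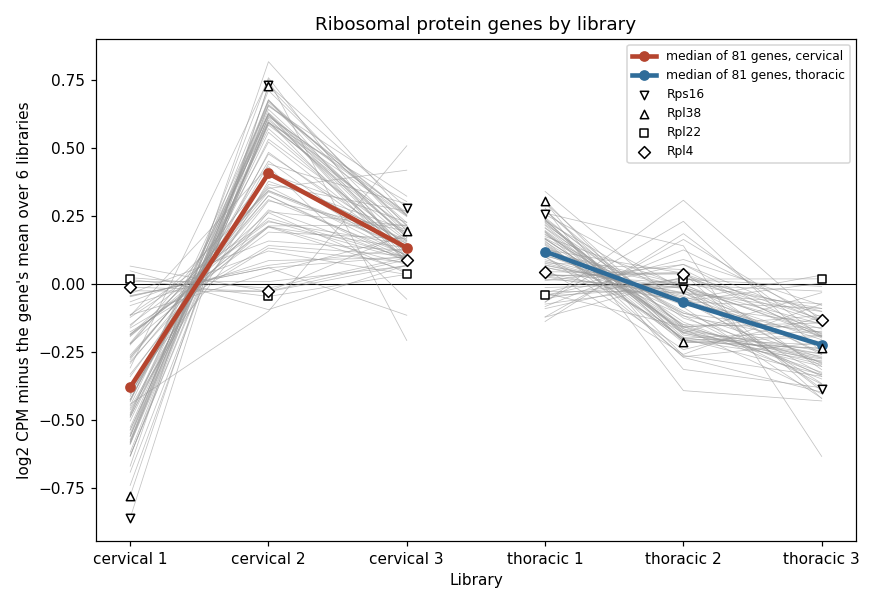
Log2 CPM of each tested gene minus its own mean over the 6 libraries, by library, with cervical libraries left of thoracic ones. Grey lines are the 81 genes within each region, thick lines their median, and symbols mark Rps16, Rpl38, Rpl22 and Rpl4; cervical library 1 lies lowest at a median of -0.38 and cervical library 2 highest at 0.41, while Rpl22 and Rpl4 stay near 0.

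The genes fell along a range from nearly constant to strongly varying. The highest over the lowest CPM of the 6 libraries had a median of 1.79 over the 81 genes and 1.23 over 11893 other genes with a mean of at least 5 CPM. It reached 2 for 34 of the 81 (42%) and for 4.25% of the other genes, and cervical library 2 held at least 2 times the level of cervical library 1 for 32 (39.5%) and for 0.959% of the other genes. At the wide end, Rps16, a protein gene of the small-subunit head, had 9.52, 29.7 and 21.6 CPM in the cervical libraries, against 21.2, 17.5 and 13.4 CPM in the thoracic libraries, a 3.12-fold range. Rps29, a small-subunit gene with a zinc-binding protein, had 27.3, 77.5 and 52.1 CPM in the cervical libraries, against 54.0, 35.1 and 33.5 CPM in the thoracic libraries (2.84-fold), and Rps27, which also encodes a zinc-binding protein, 30.6, 81.7 and 61.6 CPM in the cervical libraries, against 62.2, 46.2 and 42.1 CPM in the thoracic libraries (2.67-fold). All of them had cervical library 2 highest and cervical library 1 lowest, and Rpl29, at 2.68-fold, had thoracic library 3 lowest.

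At the narrow end, Rpl22, whose protein binds RNA and is dispensable for most translation in mice, had 112, 107 and 113 CPM in the cervical libraries, against 107, 112 and 112 CPM in the thoracic libraries, a 1.06-fold range (log2 fold change 0.0036 with SE 0.05, edgeR adjusted p = 0.996, 95% interval -0.12 to 0.12). Rpl8 had 251, 227 and 255 CPM in the cervical libraries, against 237, 258 and 229.8 CPM in the thoracic libraries (1.14-fold), with cervical library 2 the lowest, and Rpl4 and Rps26 ranged 1.17-fold and 1.14-fold. In none of these 4 genes was cervical library 2 highest or cervical library 1 lowest.

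How far a gene varied went with how much of its coding sequence is repeated in pseudogenes. Every stretch of 50 bases in the coding sequences was looked up among 13399 transcripts annotated as pseudogenes in GENCODE vM21 (GRCm38), in which 80 of the 81 genes were found by symbol. Of these, 79 shared at least 1 such stretch with a pseudogene, and a gene matched a median of 8 pseudogenes and at most 121 (Rpl7a). For 20 genes every coding stretch recurred in a pseudogene. The starts of the coding sequences are shown for 3 of the genes of widest range, 2 with an exact copy and Rps27 with none, with bases that differ from the closest pseudogene in capitals, where an entry with no capitals has an exact copy (first 50 coding bases, 5′ to 3′, from GENCODE vM21).

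Rps16: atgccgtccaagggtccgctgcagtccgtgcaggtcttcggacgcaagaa
Rpl38: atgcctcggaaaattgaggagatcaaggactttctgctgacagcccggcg
Rps27: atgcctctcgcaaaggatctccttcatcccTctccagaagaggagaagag

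The same bases of 3 genes of narrow range are given for comparison, of which Rpl22 and Rpl8 differ from their closest pseudogene at 5 and 15 positions and Rpl39 has exact copies in 4 pseudogenes. The starts of Rpl4 and Rps26, also of narrow range, differ at 1 position each, as many as that of Rps27, and those of Rpl29 and Rpl24, of wide range, have exact copies. Rpl24 had only 22 to 63 counts per library, so counting error adds to its range. The starts alone did not separate the wide from the narrow genes.

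Rpl22: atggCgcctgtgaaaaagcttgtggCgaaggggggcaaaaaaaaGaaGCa
Rpl8: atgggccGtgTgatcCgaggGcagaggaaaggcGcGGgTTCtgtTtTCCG
Rpl39: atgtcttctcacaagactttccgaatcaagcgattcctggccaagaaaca

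Across 78 genes with a mean of at least 5 CPM, Spearman's rho between the percentage of shared coding stretches and the highest-over-lowest ratio was 0.69, and that with the log2 fold change of cervical over thoracic was 0.61. The ratio and the log2 fold change themselves had a rho of 0.83 over these genes, so the correlations with copies are not separate results. The points share the same 6 libraries and are not independent. The ratio went less with exon length (rho -0.23), mean RPKM (-0.12) or coding length (-0.05). Above 50% of shared stretches, 61 genes had a median ratio of 2.04, and 32 of them reached 2. At 50% or below, 0 of 17 genes reached 2, the widest being Rps21 with 1.88 and Rplp2 with 1.79. Other protein-coding genes above 50%, 266 in number, had a median ratio of 1.36 and 7.52% of them reached 2, against 1.22 and 3.93% for the 9176 with no shared stretch. Between these ends the other genes showed no steady increase, with 1.19 and 1.84% for the 705 above 0 and up to 10%, and 1.22 and 1.63% for the 492 above 10 and up to 50%.

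**Figure D4:**
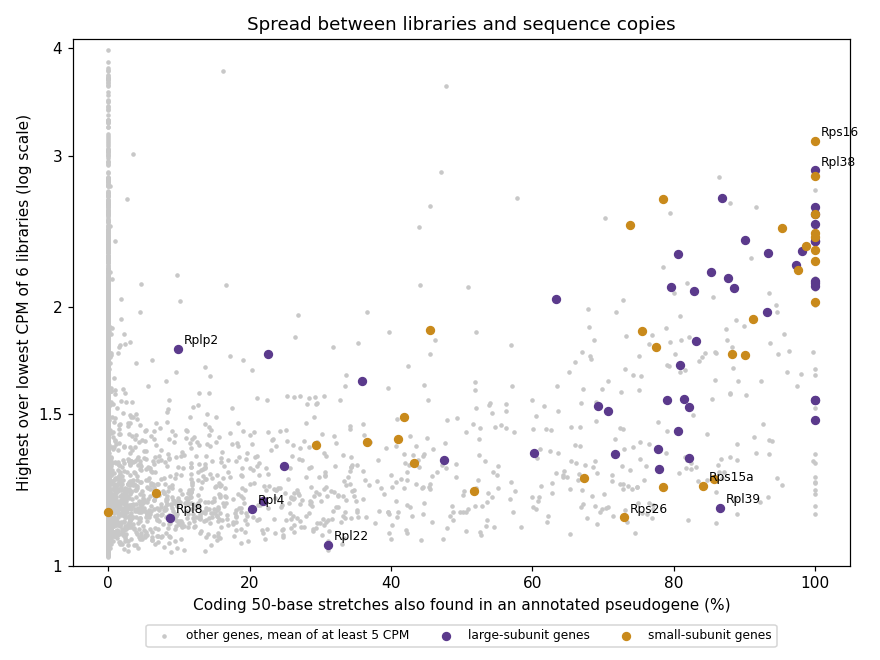
Highest over lowest CPM of the 6 libraries on a log axis against the percentage of coding 50-base stretches that also occur in an annotated pseudogene, for the 78 ribosomal protein genes with a mean of at least 5 CPM and those below it, coloured by subunit, and for 10567 other genes in grey (72 others lie above a ratio of 4 and are not drawn). Ribosomal protein genes with a ratio of 2 or more lie above 50% on the x axis, while Rpl8, Rpl4 and Rpl22 lie low on both axes and Rpl39 and Rps26 low on the y axis alone.

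The summed share split in the same way. The 17 genes at 50% or below took 0.174, 0.199 and 0.197% of counts in the cervical libraries, against 0.190, 0.189 and 0.162% in the thoracic libraries, a 1.23-fold range with a median log2 fold change of 0.09. The other 64 tested genes, which include Rps4l without a match, took 0.308, 0.549 and 0.441% in the cervical libraries, against 0.437, 0.373 and 0.345% in the thoracic libraries, a 1.78-fold range with a median of 0.19. The limit of 50% was set after the values were seen. A read that matches a gene and its pseudogene equally well cannot be assigned to either from its sequence, and the sources used here do not say how the counting treated such reads. Levels of genes with such copies are uncertain to that extent, and the part of the copies in the library pattern was not tested.

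Cell markers also differed between the libraries. The 8 motor neuron markers summed to 636, 309 and 425 CPM in the cervical libraries, against 579, 373 and 514 CPM in the thoracic libraries. Cervical library 1, lowest in ribosomal protein genes, was highest in these markers, and cervical library 2 was lowest. The thoracic libraries did not show this opposite order. Thoracic library 1 had the highest thoracic share of ribosomal protein genes (0.627%) and also the highest thoracic marker sum. Thoracic library 3 had the lowest thoracic share (0.507%) with a marker sum between those of the other thoracic libraries. The 10 neural progenitor markers summed to 692, 929 and 738 CPM in the cervical libraries, against 804, 1052 and 853 CPM in the thoracic libraries, and the 12 cell cycle genes to 353, 378 and 336 CPM in the cervical libraries, against 403, 471 and 387 CPM in the thoracic libraries. The 9 mesenchyme markers summed to 21.5, 70.4 and 223 CPM in the cervical libraries, against 133, 158 and 223 CPM in the thoracic libraries and the 9 macrophage markers to 4.56, 17.3 and 12.7 CPM in the cervical libraries, against 5.38, 10.6 and 4.63 CPM in the thoracic libraries. No marker of these 5 lists was at 0 in all libraries, and the part of cell composition in the ribosomal protein levels was not tested.

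Some ribosomal proteins have a second gene whose product can take the place of the first. Reads of Rpl22l1 were 7.90, 11.4 and 9.56% in the cervical libraries, against 8.89, 7.89 and 7.96% in the thoracic libraries of those of Rpl22 and Rpl22l1 together. The mean was 9.62 ± 1.74% in cervical and 8.25 ± 0.562% in thoracic libraries (SD, n = 3 each, exact two-sided permutation p = 0.3, adjusted over 4 pairs 1), with overlap between the regions. Rps27l took 24.6, 11.6 and 13.3% in the cervical libraries, against 13.6, 21.8 and 18.1% in the thoracic libraries of the reads of Rps27 and Rps27l (exact permutation p = 0.8, adjusted 1). Its share was highest where Rps27 was lowest, in cervical library 1, while Rps27l itself stayed within 1.38-fold over the 6 libraries.

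Rpl7l1, a homolog of Rpl7, took 20.6 ± 3.51% of the reads of both genes in cervical and 20.8 ± 1.66% in thoracic libraries, and Rps4l took 20.1 ± 3.56 and 20.2 ± 3.06% of those of Rps4x and Rps4l (SD, n = 3 each, exact permutation p = 1 for both pairs). With 3 libraries against 3, the smallest p this test can give is 0.1. The pairs Rpl3l with Rpl3, Rpl10l with Rpl10 and Rpl39l with Rpl39 were not compared, since the paralog did not pass the low-count filter.

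Ribosomal protein genes often carry small nucleolar RNAs, which guide the modification of ribosomal RNA, in their introns. In the deposited coordinates 24 of the 81 tested genes (29.6%) hold at least 1 gene named Snora or Snord on the same strand, 34 in all, against 67 of the other 21891 tested genes (0.306%). Rpl13a holds 4 of them (Snord32a, Snord33, Snord34 and Snord35a) and Rpl23a 3. The 24 host genes had a median highest-over-lowest ratio of 1.79 and the other 57 one of 1.76, with median log2 fold changes of 0.17 in both. Small nucleolar RNA genes under other names were not counted, so the other 57 may include further hosts.

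Their promoters share short motifs as well. RefSeq promoters (GRCm38.p6, 250 bases before to 50 after the start) were matched by symbol for 60 of the 81 genes. The pyrimidine run CTCTTTC, searched on both strands, was in at least 1 promoter of 18 of the 60. Counted by promoter, 29.6% of their 71 promoters hold it, against 8.16% of all 32851 promoters. The ETS-like motif CCGGAAG, also searched on both strands, was in at least 1 promoter of 25 genes and in 36.6% of the 71 promoters, against 8.86% of all promoters. Neither motif contains the other. Windows of 30 bases are shown for 3 genes with the pyrimidine run at or near the annotated start, and for 3 with the ETS-like motif there, with the motif in capitals.

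Rpl28, chr7:4792954-4792983, plus strand: ctctcgtgtctCTCTTTCcgtctccggccg
Rpl35, chr2:39005113-39005142, minus strand: cccgccctttcCTCTTTCtctcgaaccagg
Rps15a, chr7:118116142-118116171, minus strand: cccggcccactCTCTTTCtgccatcttccc
Rpl31, chr1:39367848-39367877, plus strand: ctccccgtgacCCGGAAGttgtacggctac
Rpl38, chr11:114668549-114668578, plus strand: gggttaaccgtCCGGAAGcggaagcctcgt
Rpl26, chr11:68901559-68901588, plus strand: aacttacagaaCCGGAAGtcgcgtgtagtt

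Genes of both window sets varied to different degrees between the libraries. With the pyrimidine run, Rpl28 and Rpl35 ranged 2.11-fold and 2.30-fold and Rps15a 1.24-fold. With the ETS-like motif, Rpl38 ranged 2.88-fold and Rpl26 1.30-fold. A match of letters is not a measured binding site or start.

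No other gene of protein synthesis on the lists was called different between the regions in the edgeR test. Of 10 elongation factor, 38 initiation factor, 48 ribosome assembly, 20 RNA polymerase I and 18 growth control genes tested, 0 were called, with 1, 1, 2, 0 and 1 at an unadjusted p under 0.05. Of all tested genes 0.542% were called and 8.47% passed the unadjusted p, so 0 calls among lists of this size is near the background. Their median log2 fold changes were 0.01, 0.02, 0.04, 0.05 and -0.00048. Ncl, the nucleolin gene of ribosome assembly, had 349.7, 343 and 352 CPM in the cervical libraries, against 335, 347 and 354 CPM in the thoracic libraries. Eef2, which moves the ribosome along the messenger RNA, had 1812 ± 35.9 CPM in the cervical and 1870.0 ± 23.5 CPM in the thoracic libraries (log2 fold change -0.05 with SE 0.06, edgeR adjusted p = 0.921). The growth regulators Myc and Mycl had log2 fold changes of 0.16 and 0.18 (SE 0.08 and 0.07, edgeR adjusted p = 0.662 and 0.492).

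Cervical library 2 was highest and cervical library 1 lowest for 55 of the 81 ribosomal protein genes (67.9%), against 3.81% of the other tested genes. The same order held for 2 of the 10 elongation factor genes (Eef1a1 and Eef1g), 5 of the 38 initiation factor genes (Eif1, Eif3e, Eif3j1, Eif3m and Eif4a1), 2 of the 48 ribosome assembly genes (Fbl and Pes1), 1 of the 20 RNA polymerase I genes (Polr2k), 0 of the 18 growth control genes, and 4 of 15 other genes with an oligopyrimidine tract (Tpt1, Npm1, Nap1l1 and Hnrnpa1). Eef1a1, which brings aminoacyl-tRNA to the ribosome, had 941, 1498 and 1262 CPM in the cervical libraries, against 1248, 1120.4 and 1089 CPM in the thoracic libraries (log2 fold change 0.10 with SE 0.14, edgeR adjusted p = 0.931). Eif4a1, an RNA helicase of initiation, had 179, 318 and 254 CPM in the cervical libraries, against 248, 208 and 197 CPM in the thoracic libraries, and Hnrnpa1, an RNA-binding protein gene, had 219, 488 and 328 CPM in the cervical libraries, against 324, 263 and 262 CPM in the thoracic libraries. Genes named here for this order were chosen after their values were seen. Fau, which encodes the small-subunit protein eS30, had 19.5, 51.4 and 35.5 CPM in the cervical libraries, against 35.9, 24.3 and 23.5 CPM in the thoracic libraries (log2 fold change 0.34 with SE 0.28, edgeR adjusted p = 0.842), with the same order. The 15 other genes with an oligopyrimidine tract had a median log2 fold change of 0.10 and 0 calls. Among them Tpt1, a translationally controlled growth gene, had 71.0, 195 and 135 CPM in the cervical libraries, against 137, 104 and 98.2 CPM in the thoracic libraries (log2 fold change 0.24 with SE 0.27, edgeR adjusted p = 0.907), and Rack1, whose protein is part of the small subunit, was nearly level at 301, 279.9 and 308 CPM in the cervical libraries, against 283, 295 and 268 CPM in the thoracic libraries (log2 fold change 0.07 with SE 0.06, edgeR adjusted p = 0.866). Vim, the intermediate filament gene vimentin of progenitors and glia, stood at 291, 348 and 283 CPM in the cervical libraries, against 378, 489 and 419 CPM in the thoracic libraries (log2 fold change -0.48 with SE 0.10, edgeR adjusted p = 0.0859, blocked adjusted p = 0.000730, DESeq2 adjusted p = 0.00047), so it was called lower in cervical libraries with the block and in DESeq2 and was not called by the edgeR test without it.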

How the data were processed

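RNA of 3 cervical and 3 thoracic motor neuron samples was purified with a kit for small samples. Per the labels' protocols, library preparation was stranded, started with 10 to 20 ng and used 15 PCR cycles. The deposited values are whole-number counts per gene. The authors used FastQC 0.11.9, STAR 2.7.5b and featureCounts 2.0.1 with mm39, per the submitters' processing notes. The sources used here do not give the annotation release, the strand setting or the treatment of reads with several matches.

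Counts were analysed with edgeR 4.0.16 in R 4.3.3. Its low-count filter (minimum count 10) kept 21972 genes and removed 34833 with 0.117% of counts. TMM factors were 0.989 to 1.01. The quasi-likelihood test had region as its only term, with Benjamini-Hochberg adjustment over all tested genes and calls at 0.05. Fold changes are cervical over thoracic on the log2 scale (prior count 0.125), and deviations from a gene's mean use log2(CPM + 0.5). Paralog shares were tested with exact permutations in R, and rank correlations were computed with scipy 1.17.1. Alternatives were DESeq2 1.42.0, limma-voom (limma 3.58.1), other scalings and filters, a replicate block, and leaving out each library. The script was tested on simulated data. Library totals were 32103071 to 53186131, and pairs of libraries of a region differed by 10.1 to 16.2 times what counting alone gives (chi-square over degrees of freedom). That ratio cannot tell biological from technical spread. Each library was treated as a sample because the series calls its samples biological replicates.

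Replicate numbers come from the sample titles. Eif2s3y, an initiation factor gene of the Y chromosome, had 58.5, 65.0 and 0.13 CPM in the cervical libraries. In the thoracic libraries it had 56.9, 60.1 and 0.09 CPM, so the low value fell on the same replicate number in both regions. The part of embryo sex in the other levels was not tested. Deviations of same-numbered libraries from their region means correlated at 0.21, 0.20 and 0.24, so the numbers were taken to pair them. The main edgeR test, with its SEs and intervals, and the paralog permutations did not use this pairing. Only the edgeR fit with the replicate block did, and it called 432 genes where the main test called 119. Of the 81 ribosomal protein genes it called 0, with a smallest edgeR adjusted p of 0.583.

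The genes and lists were chosen with earlier results of these data known. Values per library are given for the 10 genes with the smallest p, the 5 highest and 5 lowest by RPKM, paralog pairs, genes the filter removed, and up to 3 genes per pathway list by p with its most abundant one, some of them as summaries. Genes named for their range, library order, copies, introns or promoters, and Rpl38, Rps6, Rpl5, Rpl11, Rps19, Rpsa, Rps27a, Tpt1, Rack1 and Eif2s3y, were named outside that rule. A few items are not reported here. GENCODE vM21 and RefSeq sequences (GRCm38) served for sequences only, since their build is not that of the counts.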

Additional observations from a re-analysis of the deposited data

How the results depend on the processing

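Under every alternative but one, 0 ribosomal protein genes were called. The exception had no low-count filter, where 4 were called higher in cervical libraries, Rpl21 (edgeR adjusted p = 0.00929), Rps29 (0.00929), Rpl19 (0.0178) and Rps27a (0.0489). Fau then had 0.0498, and 33 of 88 members passed an unadjusted p under 0.05, against 7.34% of all 39190 genes then tested. The calls among all genes, 119, became 409 with DESeq2, 747 with no filter and 432 with the replicate block, and 9 to 159 with one library left out. They were 41 without cervical library 2, 9 without cervical library 3, 37 without thoracic library 2 and 45 without thoracic library 3. The block added 1 call on the lists of related genes, Vim, changed no other call there and none among the ribosomal protein genes, and gave a median log2 fold change of 0.13 for them. DESeq2 gave 2 of the 81 genes no adjusted p. The median stayed between 0.12 and 0.17 under other tools, scalings and filters, was 0.09 for the 17 genes with few copies, an alternative chosen after seeing the data, and was -0.034 to 0.34 with one library left out. The difference in summed share, 0.0575 percentage points, was 0.00993 for those 17 genes. The cause of each such shift was not tested. Rpl24 had a log2 fold change of -0.049 with the replicate block and -0.077 with limma-voom. With one library left out, the log2 fold change crossed 0 for some genes, with a range of -0.050 to 0.15 for Rplp1, -0.020 to 0.066 for Rpl8, -0.024 to 0.059 for Rpl4, -0.41 to 0.31 for Rpl24, -0.0067 to 0.18 for Rps10, -0.12 to 0.44 for Rpl3, -0.051 to 0.25 for Rpl7, -0.054 to 0.52 for Rpl10, -0.020 to 0.026 for Rpl22, -0.095 to 0.30 for Rps4x, -0.13 to 0.51 for Rps27, -0.056 to 0.19 for Rps4l, -0.17 to 0.075 for Rps27l, -0.014 to 0.029 for Ncl, -0.024 to 0.64 for Fau and -0.032 to 0.32 for Rpl36al. The paralog's share of reads, cervical minus thoracic in percentage points, ranged from -2.02 to 1.48 for Rpl7l1, -2.09 to 1.61 for Rps4l, -5.36 to 1.11 for Rps27l. At these depths the counting error is small beside the spread between libraries for most of these genes. It weighs more for Rpl23a and Rpl24 near 1 CPM, for other genes of few counts such as Rps10, and for genes of narrow range such as Rpl22. With 3 libraries per region, the spread between libraries sets what could be detected for most genes.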
